A study of Mus musculus with 4 samples.

Results

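A block of mouse chromosome 10 whose genes have their homologues on the long arm of human chromosome 12 (12q) was described in HT-22 cells, a mouse hippocampal neuronal line, with and without overexpression of Nsmce1. The block, which may hold more genes, was followed through 48 named genes, called the genes of the block below. Of these, 47 were in the table of 25050 genes, and the value of Socs2 was not analysed here. All 47 identifiers carried the same symbol in the GENCODE M21 annotation and lay on chromosome 10. The homology to human 12q comes from the name of the gene set and was not tested. The genes had been chosen with the difference between overexpressing and wild type cells in view, so their differences are given as a description, with no test of the set.

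RNA was sequenced from 4 libraries in 2 groups of 2, HT-22 cells that overexpress Nsmce1 (Nsmce1-pb) and wild type HT-22 cells, all from passage 21 to 24. The labels describe the overexpression as inducible and the controls as uninduced. They name neither the promoter nor the number of clones behind the overexpressing cells, and they do not say whether the libraries of a group are separate cultures, so errors and p-values cover no more than the spread of these samples, which may be technical. The recovered reads came to 32516117 and 44602989 in the overexpressing libraries and to 25787452 and 31010351 in the wild type libraries. Nsmce1, whose product carries a RING domain within the SMC5/6 complex, had 17851 and 16525 normalised reads in the overexpressing libraries, against 1108 and 1206 in the wild type libraries. Of 8 neuronal markers 5 were in the table, and 3 of these, Syt1, Slc17a7 and Grin1, had at most 8.80 normalised reads in any library. Gap43, a protein of growing axons, had 7 and 0 in the overexpressing libraries and 23.9 and 44.2 in the wild type libraries, which did not overlap. The neuronal tubulin gene Tubb3 had 446 and 611 normalised reads in the overexpressing libraries and 622 and 574 in the wild type libraries, while the collagen gene Col1a1 had 79375 and 66303 in the overexpressing libraries and 82796 and 70005 in the wild type libraries. The summed level of the 4 fibroblast markers was 328948 and 286982 normalised reads in overexpressing and 360049 and 314213 in wild type cells. Of the glial markers, the summed astrocyte level was 4556 and 4261 in overexpressing and 3368 and 3021 in wild type cells, nearly all from Slc1a3, with the defining marker Gfap between 0 and 7.54. The astrocyte marker Aldh1l1 lay the other way, at 14 and 12.4 normalised reads in overexpressing and 57.8 and 65.3 in wild type cells. The summed microglial level was 1652 and 1534 in overexpressing and 2245 and 1900 in wild type cells, nearly all from Tmem119. The microglial markers Cx3cr1 and Ptprc had at most 7.54 in any library. Aif1 had 65 and 40.1 in overexpressing and 46.5 and 67.4 in wild type cells, which overlapped. The part of these markers in the results below was not tested.

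Genes that are neighbours in the mouse often kept their neighbours in the human genome, in blocks of conserved order. Such a block holds genes of unrelated function that share a place and not a pathway. The genes described here include the cell cycle kinase gene Cdk4, the growth factor genes Igf1 and Kitl, subunits of the nuclear pore, small-subunit ribosome assembly factors and the proteoglycan genes Dcn and Lum. Values below are normalised reads per library, as the authors scaled them, and log2 fold changes, overexpression over wild type, come from log2(value + 1).

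Most of the block was slightly higher in the overexpressing cells. Of the 47 genes, 45 averaged 10 normalised reads or more and were tested, and 41 of these lay above 0 in log2 fold change, against 51.3% of all 15540 genes tested. The median log2 fold change of the 45 genes was 0.17, a 1.12-fold difference, against 0.01 over all genes tested. Both overexpressing libraries lay above both wild type libraries for 33 of the 45 genes, which 20.8% of all genes tested did. The groups parted in the other direction for 1 gene, Phlda1, where 18.3% of all genes tested did so, and the libraries of the groups overlapped for 11. The differences were small: the largest was 1.30-fold, in Nfyb, and 0 of the genes reached 1.5-fold. In bulk RNA, more transcript per cell cannot be told apart from more cells that express a gene.

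None of the named genes of the block was called by itself. With limma and a Benjamini-Hochberg adjusted p under 0.05, 0 of the 45 genes passed, against 0.193% of all genes tested (16 or 0.103% higher and 14 or 0.0901% lower). At an unadjusted limma p under 0.05 there were 12 of the 45 genes, all higher, where 4.32% of all genes tested were higher and 3.6% lower. Of the 527 other chromosome 10 genes averaging 100 normalised reads or more, 111 were higher and 5 lower at that level. With limma voom on the recovered reads there were also 12 of the 45 genes at that level and 0 after adjustment. The count of 12 depended on the fit: it was 5 in limma without a trend, 14 with a common median and 17 with the replicate number as a block. Without a filter it was 13 of 47 genes. It also moved with a library left out, mostly to fewer genes. The number of genes called over all genes depended on the libraries. It was 2 higher and 0 lower without wild type replicate 1, 8 and 1 without wild type replicate 2, 15 and 36 without overexpression replicate 1, and 33 and 42 without overexpression replicate 2. The count among the 45 genes stayed at 0 in each of these fits.

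**Figure D1:**
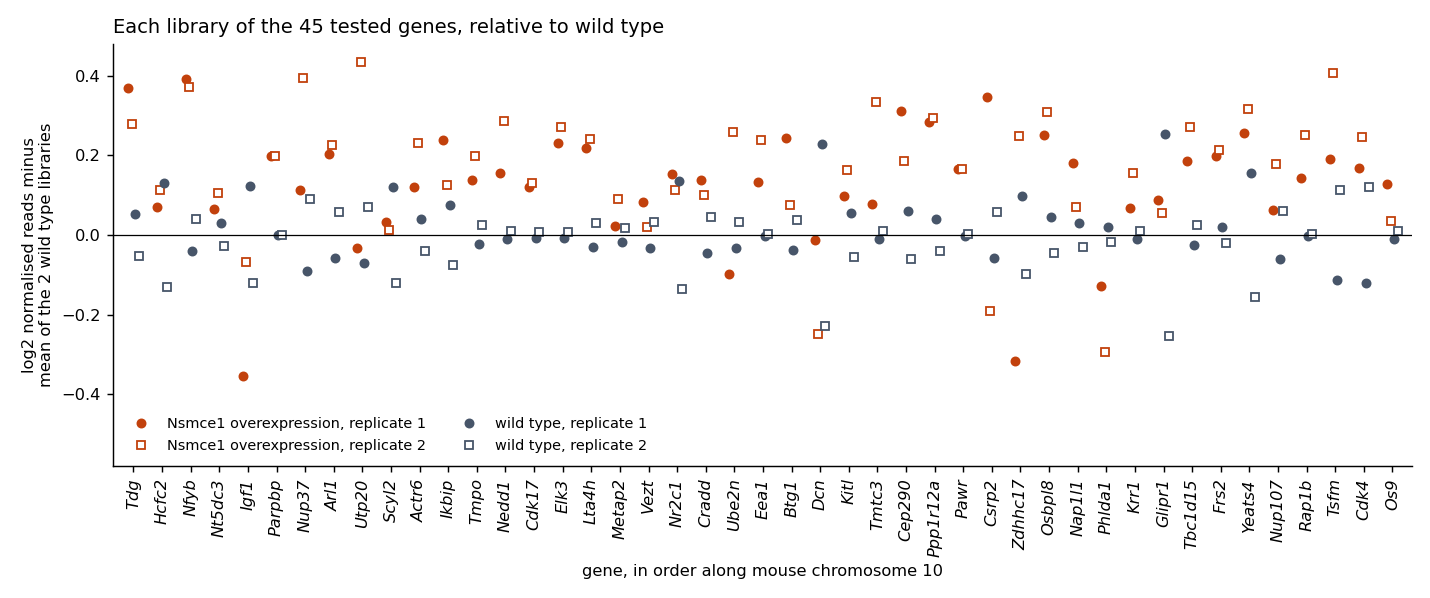
The log2 normalised reads of each library minus the mean of the wild type libraries, for the 45 tested genes in their order along chromosome 10; circles are replicate 1 and squares replicate 2. Both overexpressing libraries stand above both wild type libraries in 33 genes, and Phlda1 is the gene with both below.

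The shift was seen in each library. Over the 44 genes that averaged 100 normalised reads or more, the median log2 difference from the wild type mean was 0.14 in overexpression replicate 1 and 0.20 in overexpression replicate 2, with 39 and 41 genes above 0. For each of the 4 possible pairs of an overexpressing and a wild type library the median lay between 0.15 and 0.22. Within the groups the median was 0.03 for overexpression replicate 2 minus replicate 1 and 0.01 for wild type replicate 2 minus replicate 1. The median difference of the 44 genes was thus smaller within either group than between any overexpressing and any wild type library. For the 527 other chromosome 10 genes at that level the medians were 0.14 to 0.16 between groups. Within groups they were 0.009 in overexpressing and 0.007 in wild type cells. The genes were chosen with the difference between groups in view, so these medians are a description. Single genes were less steady: the median absolute log2 difference between replicates was 0.081 in overexpressing and 0.079 in wild type cells, and the fold changes of the 44 genes had a standard deviation of 0.11 among themselves beside a median SE of 0.094.

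The comparison was also made within ranges of abundance. Among genes of 3000 to 30000 normalised reads, the median log2 fold change was 0.20 for 15 genes of the block, 0.14 for 123 other genes of chromosome 10 and 0.005 for 2429 genes of other chromosomes. All 15 had both overexpressing libraries above both wild type libraries, as did 65.0% of the other chromosome 10 genes and 20.4% of the genes elsewhere. From 1000 to 3000 normalised reads the median was 0.15 for 16 genes of the block, 0.17 for 165 other chromosome 10 genes and -0.0002 elsewhere, and the groups were separated upwards in 62.5%, 64.8% and 19.7% of them. From 100 to 1000 it was 0.13 for 13 genes of the block, 0.12 for 235 other chromosome 10 genes and -0.0004 elsewhere, with 61.5%, 37.9% and 18.8% separated upwards. Genes of like abundance on other chromosomes were thus centred on 0 in each range, and the rest of chromosome 10 was not.

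The rest of chromosome 10 lay in the same direction, and by nearly as much. At 100 normalised reads or more on average, the median log2 fold change of its 527 other genes was 0.14, with 79.7% above 0 and 52.8% with both overexpressing libraries above both wild type libraries. The 365 genes before the first named gene had a median of 0.14, the 103 other genes between the first and the last 0.15 and the 59 genes after the last 0.14. Running medians of 25 neighbouring genes ranged from 0.04 to 0.22 along the chromosome, and all 547 were above 0. These windows moved gene by gene, so neighbouring windows share most of their genes and are not separate observations. The named genes therefore lay inside a shift that ran the length of the chromosome, and whether they differ from its other genes was not tested. Some of those other genes may have homologues on human 12q too, which was not checked.

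**Figure D2:**
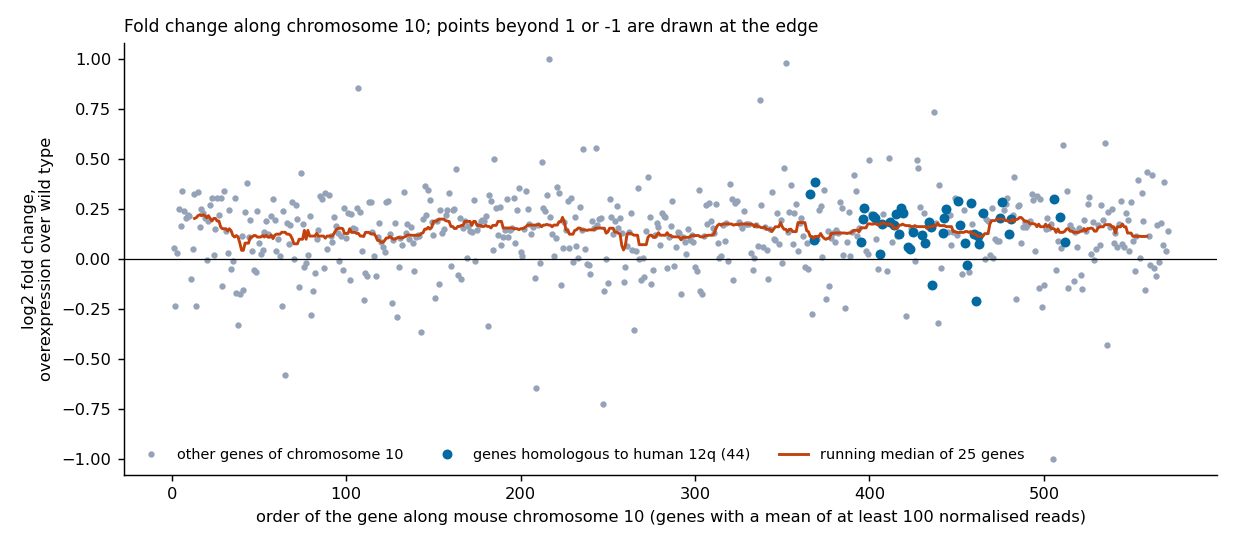
The log2 fold change of 571 chromosome 10 genes averaging 100 normalised reads or more, in their order along the chromosome, with the 44 genes of the block in blue and the running median of 25 genes as a line. The line stays between 0.04 and 0.22 from end to end.

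Other segments of chromosome 10, named by the human chromosomes that hold their homologues, gave like values. The median log2 fold change was 0.13 for genes homologous to human 6q (30 of 39 above 0). Those homologous to 10q stood at 0.14 (26 of 31), those homologous to 21q and 22q at 0.13 (17 of 27) and those homologous to 19p at 0.14 (32 of 41). Both directions occurred in each segment, and 0 of the listed genes of each were called at a limma adjusted p under 0.05. In the 6q segment Ctgf, a matricellular growth factor, had 2011 and 1979 normalised reads in the overexpressing libraries and 3135 and 2842 in the wild type libraries, and Heca had 2258 and 1935 in the overexpressing libraries and 1724 and 1499 in the wild type libraries. In the 10q segment Ank3, an ankyrin of the axon initial segment, had 170 and 183 in the overexpressing libraries and 299 and 256 in the wild type libraries, and Bicc1, an RNA-binding protein, had 4612 and 4493 in the overexpressing libraries and 3483 and 3032 in the wild type libraries. In the 21q and 22q segment Col18a1, a basement membrane collagen, had 3178 and 2632 in the overexpressing libraries and 2086 and 1857 in the wild type libraries. The lowest there, Pttg1ip, had 1351 and 4338 in the overexpressing libraries and 4063 and 3941 in the wild type libraries, which overlapped. In the 19p segment Fstl3, a follistatin-like binder of activins, had 1145 and 996 in the overexpressing libraries and 788 and 823 in the wild type libraries. The lowest there, Uqcr11, had 1453 and 1594 in the overexpressing libraries and 1674 and 1770 in the wild type libraries.

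Human 12q genes that lie elsewhere in the mouse genome were centred near 0. The median log2 fold change was 0.01 for 45 listed genes on mouse chromosome 15 (24 above 0) and -0.01 for 58 on mouse chromosome 5 (26 above 0). On chromosome 15, Tuba1b, an alpha-tubulin, had 28387 and 30982 normalised reads in the overexpressing libraries, against 31009 and 34164 in the wild type libraries. Pfkm, the muscle-type phosphofructokinase, had 4342 and 3723 in the overexpressing libraries, against 3566 and 3666 in the wild type libraries. On chromosome 5, Oas1a, an interferon-induced oligoadenylate synthetase, stood highest of its list (log2 fold change 1.40, SE 0.306). It had 165 and 139 in the overexpressing libraries and 74.2 and 43.2 in the wild type libraries. Tbx3, a T-box factor, had 963 and 863 in the overexpressing libraries and 742 and 754 in the wild type libraries. In either list 0 genes were called at a limma adjusted p under 0.05. By mouse chromosome, the median over genes averaging 100 normalised reads or more was 0.18 on chromosome 16 and 0.14 on chromosome 10, and lay between -0.03 and 0.04 on the other 18.

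**Figure D3:**
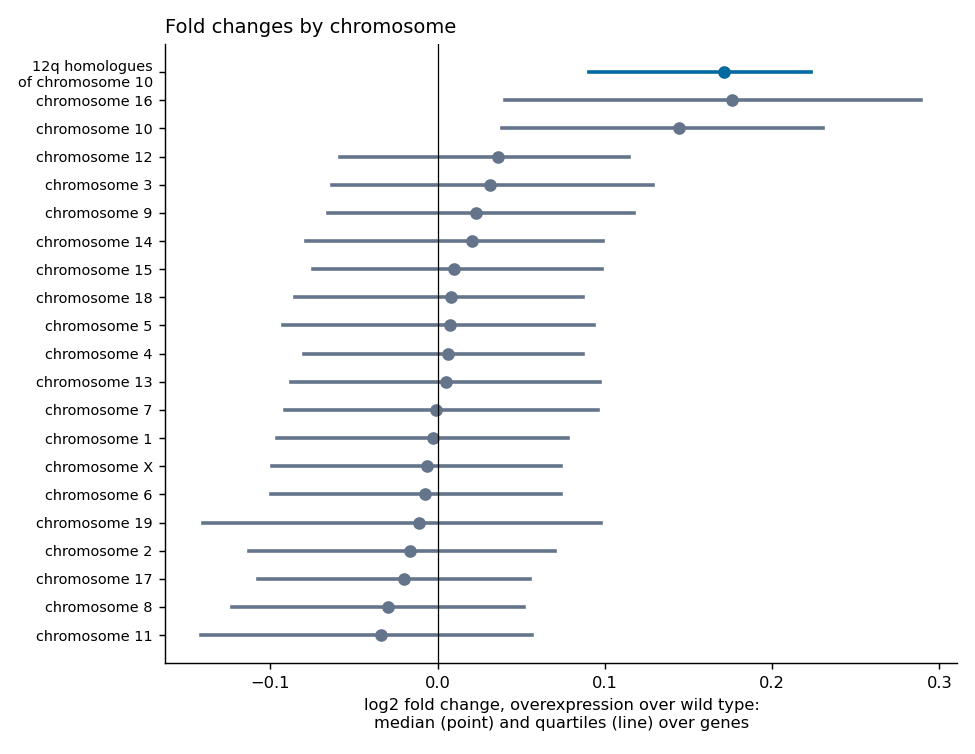
Median (point) and quartiles (line) of the log2 fold change over genes averaging 100 normalised reads or more, for the 44 genes of the block and for each of 20 chromosomes; the row for chromosome 10 includes the block. The block (0.17), chromosome 16 (0.18) and chromosome 10 (0.14) stand apart from the 18 others, which lie between -0.03 and 0.04.

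Among the other tested genes that lie between members of the block, 2 were called over all genes, in opposite directions. Atp2b1, a plasma membrane calcium pump, had 9819 and 10128 normalised reads in the overexpressing libraries, against 6237 and 5774 in the wild type libraries (log2 fold change 0.73, SE 0.076, limma adjusted p = 0.0463). Ctdsp2, a phosphatase of the RNA polymerase tail, had 3274 and 3040 in the overexpressing libraries, against 10305 and 8504 in the wild type libraries (log2 fold change -1.57, SE 0.110, limma adjusted p = 0.00917). In the order of genes averaging 100 normalised reads or more, Atp2b1 follows Dcn and Ctdsp2 precedes Tsfm.

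Promoters of 4 genes of the block, each with a neighbour among the named genes, are shown as examples. Parpbp and Nup37, and likewise Tmtc3 and Cep290, are read away from each other from a shared start region: their promoter windows, from 250 bases before to 50 after the start, overlap by 150 and 266 bases. Cdk4 and Os9 are near neighbours at the far end of the named genes, and their windows hold 4 E-boxes and 4 CCAAT boxes. The sequences are from RefSeq (GRCm38.p6), and each runs 5' to 3' on the strand of its gene. The Nup37 window is chr10:88146742-88147041 (plus strand), the Cep290 window chr10:100487332-100487631 (plus strand), the Os9 window chr10:127121111-127121410 (minus strand) and the Cdk4 window chr10:127063285-127063584 (plus strand). These 4 were chosen after the motif matches were seen. Capitals mark CCAAT, or ATTGG for the other strand, in the first 3, and CACGTG in Cdk4.
Nup37: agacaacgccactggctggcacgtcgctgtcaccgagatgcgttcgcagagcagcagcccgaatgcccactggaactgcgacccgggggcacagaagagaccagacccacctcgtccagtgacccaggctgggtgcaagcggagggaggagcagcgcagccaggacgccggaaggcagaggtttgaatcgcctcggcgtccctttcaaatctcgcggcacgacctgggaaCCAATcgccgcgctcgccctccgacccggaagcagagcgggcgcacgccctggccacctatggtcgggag
Cep290: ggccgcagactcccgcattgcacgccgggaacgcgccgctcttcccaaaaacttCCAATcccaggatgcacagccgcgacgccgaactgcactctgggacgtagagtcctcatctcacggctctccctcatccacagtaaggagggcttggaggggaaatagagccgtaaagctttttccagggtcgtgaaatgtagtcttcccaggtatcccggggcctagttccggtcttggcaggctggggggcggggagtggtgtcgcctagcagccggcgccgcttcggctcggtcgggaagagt
Os9: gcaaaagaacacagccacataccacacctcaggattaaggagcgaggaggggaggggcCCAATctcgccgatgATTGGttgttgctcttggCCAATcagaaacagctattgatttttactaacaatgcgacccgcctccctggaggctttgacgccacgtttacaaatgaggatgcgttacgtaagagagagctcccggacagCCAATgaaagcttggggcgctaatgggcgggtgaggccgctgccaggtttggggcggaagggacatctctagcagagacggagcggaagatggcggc
Cdk4: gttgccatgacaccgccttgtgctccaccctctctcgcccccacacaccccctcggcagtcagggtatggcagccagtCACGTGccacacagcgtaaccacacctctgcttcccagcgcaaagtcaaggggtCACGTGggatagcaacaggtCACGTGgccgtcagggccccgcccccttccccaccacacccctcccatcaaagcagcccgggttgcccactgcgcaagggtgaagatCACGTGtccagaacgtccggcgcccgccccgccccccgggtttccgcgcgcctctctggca

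CCAAT is the sequence bound by NF-Y, whose B subunit is encoded by Nfyb in the same block. CCAAT or ATTGG was in a window of 19 of the 39 genes of the block with a RefSeq promoter (48.7%), whatever their level. It was in 39.0% of 403 other chromosome 10 genes and 44.4% of 8492 genes of any chromosome, both sets averaging 100 normalised reads or more. Of all 27025 genes with a window it was in 41.1%. The genes of the block were not held to that level and include Igf1 and Cpm, which average less. CACGTG, which reads the same on both strands, was in 6 (15.4%, against 15.4% of other chromosome 10 genes, 12.1% of expressed and 8.09% of all genes). The GC box GGGCGG, or CCGCCC, was in 28 (71.8%, against 74.2% of other chromosome 10 genes, 71.3% of expressed and 38.2% of all genes). TATAAA, or TTTATA, was in 4 (10.3%, against 9.93% of other chromosome 10 genes, 8.11% of expressed and 15.7% of all genes). Matches of different motifs can share letters, as where CCGCCC runs into CCAAT, and a match is a description of the window only. The differences between these shares were not tested.

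All 4 genes of the pairs that share a start region lay above 0. Parpbp, which restrains homologous recombination, had 1370 and 1371 normalised reads in the overexpressing libraries and 1193 and 1194 in the wild type libraries. Nup37, a subunit of the Y complex of the nuclear pore, had 674 and 820 in the overexpressing libraries and 586 and 663 in the wild type libraries. Their log2 fold changes were 0.20 (SE 0.087) and 0.25 (SE 0.140), and the groups did not overlap in either gene. Tmtc3, which encodes an O-mannosyltransferase of the endoplasmic reticulum, had 2967 and 3546 in the overexpressing libraries and 2794 and 2832 in the wild type libraries. Cep290, a protein of the ciliary transition zone, had 1735 and 1592 in the overexpressing libraries and 1457 and 1342 in the wild type libraries. Their log2 fold changes were 0.21 (SE 0.105) and 0.25 (SE 0.097), again without overlap of the groups. The values of a pair did not keep together when a library was left out: without overexpression replicate 1 Tmtc3 stood at 0.33 and Cep290 at 0.19, and without overexpression replicate 2 Tmtc3 stood at 0.08 and Cep290 at 0.31. Nup37 ranged from 0.11 to 0.39 with a library left out, while Parpbp stayed at 0.20. The genes of a pair were not tested against each other.

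Genes of chromatin, transcription and DNA repair formed the largest role group, and all 10 lay above 0, with a median log2 fold change of 0.19 and separated groups in 8. Counts by role, here and below, stand beside 51.3% above 0 and 20.8% separated upwards of all genes tested. Among other chromosome 10 genes averaging 100 normalised reads or more these shares were 79.7% and 52.8%. Differences between roles were not tested. Nfyb had 1133 and 1118 normalised reads in the overexpressing libraries, against 840 and 888 in the wild type libraries (log2 fold change 0.38, SE 0.095). Tdg, the thymine DNA glycosylase of base excision repair, had 691 and 649 in the overexpressing libraries, against 555 and 515 in the wild type libraries (log2 fold change 0.32, SE 0.113). Nfyb and Tdg stood highest of the named genes and lie at their near end, with Hcfc2, a relative of host cell factor 1, between them at 0.09. Hcfc2 had 1291 and 1329 in the overexpressing libraries and 1346 and 1123 in the wild type libraries, which overlapped. Yeats4, a reader of acetylated histones, had 1390 and 1450 in the overexpressing libraries, against 1296 and 1046 in the wild type libraries (log2 fold change 0.29, SE 0.125). Elk3, an ETS transcription factor, had 3745 and 3856 in the overexpressing libraries, against 3176 and 3209 in the wild type libraries (log2 fold change 0.25, SE 0.074). These 4 genes with the largest differences of the group had no overlap between groups. Nap1l1, a histone chaperone, was the most abundant gene of the block per length of exon, at 4297 normalised reads per kilobase in overexpressing and 3937 in wild type cells. Its libraries held 22284 and 20632 normalised reads in overexpressing and 20081 and 19244 in wild type cells. Actr6, a subunit of the SRCAP remodeller, stood at 0.18, Btg1, an antiproliferative cofactor of messenger RNA decay, at 0.16, and the orphan nuclear receptor gene Nr2c1 at 0.13 in log2 fold change. Nr2c1 had 595 and 578 in the overexpressing libraries, and its wild type libraries, at 587 and 487, overlapped with them.

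The 3 genes of the nuclear pore and envelope all had separated groups, where 20.8% of all genes tested were separated upwards. Beside Nup37, Nup107, the scaffold of the same Y complex, had 2875 and 3117 normalised reads in the overexpressing libraries and 2638 and 2871 in the wild type libraries, with the lower overexpressing library just above the higher wild type library. Tmpo, the lamina-associated polypeptide, had 9934 and 10350 in the overexpressing libraries, against 8877 and 9176 in the wild type libraries (log2 fold change 0.17, SE 0.071).

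**Figure D4:**
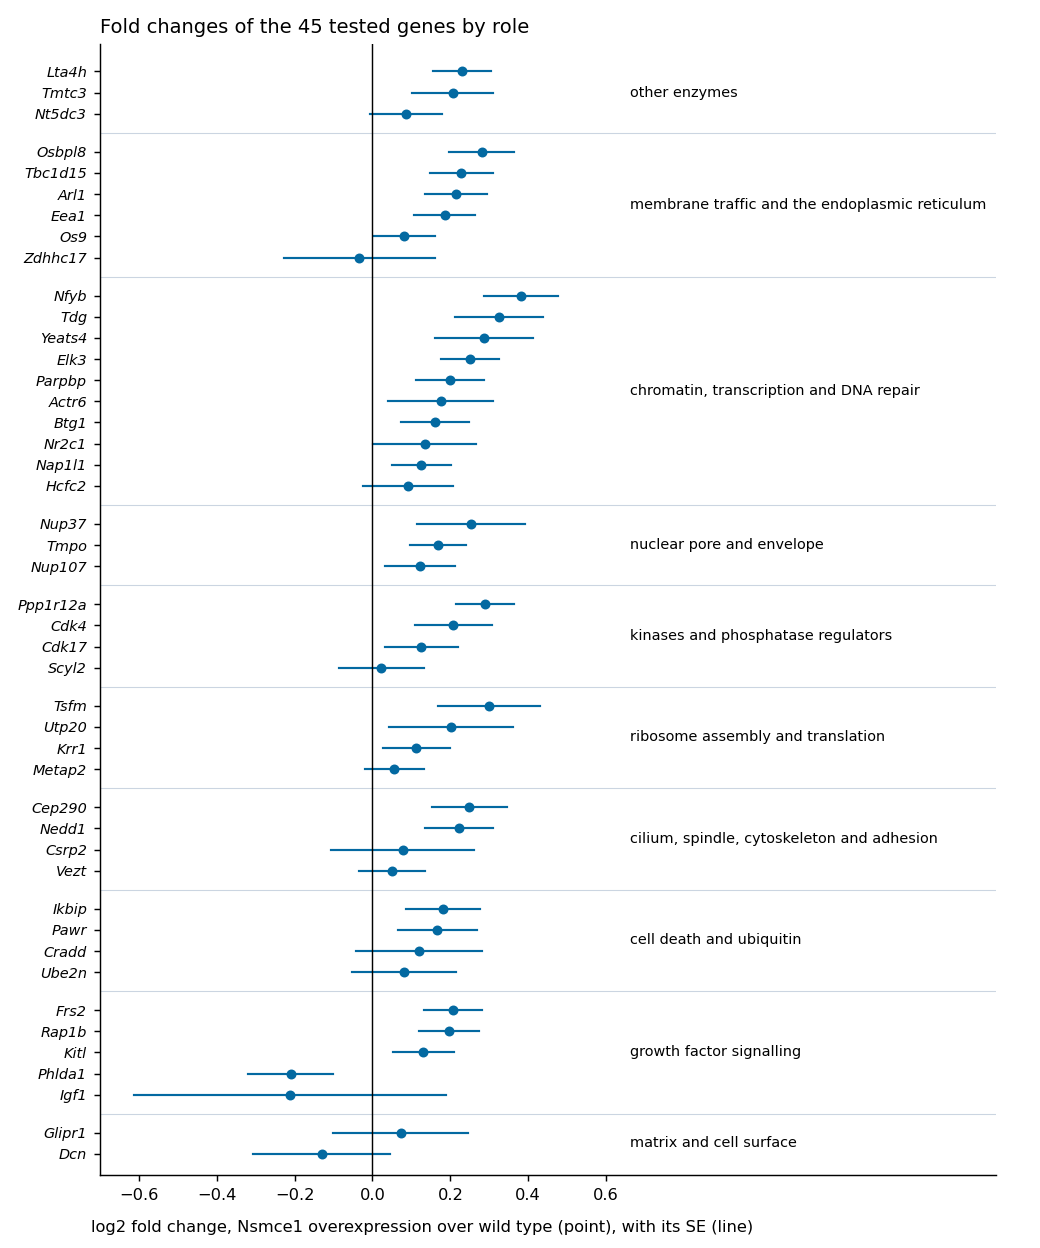
The log2 fold change of overexpression over wild type (point) with its SE from limma (line) for the 45 tested genes, grouped by role and sorted within each group. Of the 45 genes 41 stand right of 0; Phlda1, Igf1, Dcn and Zdhhc17 stand left of it.

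Genes of growth factor signalling went both ways. The ligand gene Kitl, which encodes the stem cell factor bound by the Kit receptor, had 5210 and 5446 normalised reads in the overexpressing libraries, against 5055 and 4682 in the wild type libraries (log2 fold change 0.13, SE 0.079). The ligand gene Igf1, insulin-like growth factor 1, was near the limit of these libraries, with 16 and 27 reads in the overexpressing libraries and 18 and 18 reads in the wild type libraries, or 17.9 ± 2.62 and 20.8 ± 2.60 normalised reads (SD, n = 2 each), so that a difference was not detectable at this depth (log2 fold change -0.21, SE 0.400). Downstream of receptors, Frs2, the docking protein of FGF receptors, had 3759 and 3803 in the overexpressing libraries, against 3324 and 3232 in the wild type libraries (log2 fold change 0.21, SE 0.074). Rap1b, a small GTPase of the Ras family, had 5118 and 5512 in the overexpressing libraries, against 4623 and 4641 in the wild type libraries (log2 fold change 0.20, SE 0.077). The groups did not overlap in Kitl, Frs2 and Rap1b.

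Phlda1, a pleckstrin homology-like domain gene that growth factor signalling induces, lay below 0, as Igf1 did. It had 801 and 714 normalised reads in the overexpressing libraries, against 887 and 864 in the wild type libraries (log2 fold change -0.21, SE 0.109). Both overexpressing libraries lay below both wild type libraries. In the order of the measured members Phlda1 lies between Nap1l1 and Krr1, whose log2 fold changes were 0.13 (SE 0.076) and 0.11 (SE 0.086). Whether Phlda1 differs from these neighbours was not tested.

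All 4 kinase and phosphatase regulator genes lay above 0, and 3 had separated groups. Ppp1r12a, which encodes the targeting subunit of myosin phosphatase, had 6224 and 6260 normalised reads in the overexpressing libraries, against 5254 and 4969 in the wild type libraries (log2 fold change 0.29, SE 0.074). Cdk4, the cyclin D-dependent kinase of the G1 phase, had 11975 and 12639 in the overexpressing libraries, against 9791 and 11586 in the wild type libraries (log2 fold change 0.21, SE 0.099). Its wild type libraries differed from each other by more than the nearest libraries of the groups did. Cdk17, a PCTAIRE-type kinase, had 1029 and 1035 in the overexpressing libraries, against 941 and 951 in the wild type libraries, while Scyl2, a pseudokinase of clathrin-coated vesicles, had 1491 and 1469 in the overexpressing libraries and 1583 and 1341 in the wild type libraries, which overlapped.

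The median log2 fold change of membrane traffic genes was 0.20, with 5 of 6 above 0 and separated. Osbpl8, a lipid transfer protein of endoplasmic reticulum contacts, had 2528 and 2632 normalised reads in the overexpressing libraries, against 2189 and 2058 in the wild type libraries (log2 fold change 0.28, SE 0.083). Arl1, a GTPase of the trans-Golgi, had 4197 and 4262 in the overexpressing libraries, against 3502 and 3791 in the wild type libraries. Tbc1d15, a GTPase-activating protein for Rab7, stood at 0.23 and Eea1, the tether of early endosomes, at 0.19 in log2 fold change. Os9, a lectin of endoplasmic reticulum-associated degradation, had 3904 and 3656 in the overexpressing libraries and 3546 and 3595 in the wild type libraries. Zdhhc17, a palmitoyltransferase that acts on huntingtin, varied most between its overexpressing libraries, at 868 and 1286, with 1157 and 1011 in the wild type libraries. Its log2 fold change was -0.03 with all libraries, 0.25 without overexpression replicate 1, -0.32 without overexpression replicate 2, 0.06 without wild type replicate 1 and -0.13 without wild type replicate 2.

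Among cell death and ubiquitin genes 4 of 4 lay above 0 and 3 had separated groups. Pawr, a proapoptotic regulator, had 741 and 741 normalised reads in the overexpressing libraries, against 659 and 661 in the wild type libraries. Ikbip stood at 0.18 and Cradd, the adaptor of caspase-2, at 0.12 in log2 fold change. Ube2n, the conjugating enzyme of lysine-63-linked ubiquitin chains, had 1257 and 1610 in the overexpressing libraries and 1314 and 1376 in the wild type libraries, which overlapped, and its log2 fold change was 0.08 with all libraries and -0.10 without overexpression replicate 2.

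Ribosome assembly and translation genes lay above 0 in 4 of 4 cases, with separated groups in 3. Tsfm, the mitochondrial elongation factor Ts, had 858 and 998 normalised reads in the overexpressing libraries, against 695 and 813 in the wild type libraries (log2 fold change 0.30, SE 0.132). Utp20, a factor of the small-subunit processome, had 2658 and 3678 in the overexpressing libraries and 2588 and 2855 in the wild type libraries, and its log2 fold change of 0.20 rested on overexpression replicate 2, without which it was -0.03. Krr1, of the same processome, had 1770 and 1883 in the overexpressing libraries and 1677 and 1701 in the wild type libraries. Metap2, a methionine aminopeptidase, had 4037 and 4227 in the overexpressing libraries and 3925 and 4020 in the wild type libraries.

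In the cilium, spindle, cytoskeleton and adhesion group, 4 of 4 genes lay above 0 and 2 had separated groups, Cep290 and Nedd1. Nedd1, which recruits gamma-tubulin to the spindle, had 2206 and 2414 normalised reads in the overexpressing libraries, against 1965 and 1993 in the wild type libraries. Csrp2, a LIM domain protein, had 1111 and 766 in the overexpressing libraries and 840 and 909 in the wild type libraries, with 1 overexpressing library on each side of wild type. Its log2 fold change was 0.08 with all libraries and -0.19 without overexpression replicate 1. Vezt, a component of adherens junctions, stood at 0.05 and its groups overlapped. Of the remaining enzymes, Lta4h, the leukotriene A4 hydrolase, had 4694 and 4766 in the overexpressing libraries, against 3951 and 4120 in the wild type libraries (log2 fold change 0.23, SE 0.074), and Nt5dc3 stood at 0.09.

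Matrix and cell surface genes were the group in which no member had both overexpressing libraries above both wild type libraries. Dcn, the small leucine-rich proteoglycan decorin, had 888 and 753 normalised reads in the overexpressing libraries and 1049 and 765 in the wild type libraries. Its log2 fold change was -0.13 (SE 0.175) with all libraries and 0.10 without wild type replicate 1. Lum, which encodes the related proteoglycan lumican, had 0 reads in both overexpressing libraries and 3 and 13 reads in the wild type libraries, or 3.77 and 13.7 normalised reads, and was too low to be tested. Cpm, a membrane carboxypeptidase, was also too low, with 7 and 0 normalised reads in the overexpressing libraries and 7.54 and 0 in the wild type libraries. Glipr1 had 899 and 879 in the overexpressing libraries and 1009 and 709 in the wild type libraries, and its log2 fold change of 0.07 became -0.18 without wild type replicate 2.

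In the annotation 12 of the 47 genes overlap another gene averaging 10 normalised reads or more, 3 of them on the same strand, and the sources used here do not say whether counting used strand. Cdk17 overlaps Elk3, and Krr1 overlaps Glipr1, on opposite strands. Tdg overlaps Glt8d2, a glycosyltransferase gene on the other strand, which had 483 and 442 normalised reads in the overexpressing libraries and 622 and 506 in the wild type libraries. Cdk4 overlaps Tspan31, with 3409 and 2884 in the overexpressing libraries and 3134 and 2909 in the wild type libraries. The part of shared reads in these values was not tested.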

How the data were processed

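The authors deposited a table of log2 values, 1 per gene and library. Trizol extraction, a TruSeq library kit and BGISEQ-500 sequencing were used, per the labels' protocols. HISAT, Cufflinks and mm9 are named in the submitters' processing notes, without roles or versions. After the log2 was undone, all values were whole multiples of 1 step per library (100% within 0.001 read), so the deposited values are log2 of a read count scaled per library, plus 1. The step, or value of 1 read, was 1 and 0.730 in the overexpressing libraries and 1.26 and 1.05 in the wild type libraries. Intervals and SEs cover the spread of 2 libraries a group.

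limma 3.58.1 (R 4.3.3) with a mean-variance trend was fitted to the deposited log2 values of 15540 genes averaging 10 normalised reads or more, with group as the only term. Tests were two-sided, with Benjamini-Hochberg adjustment across the 15540 genes. An exact permutation test of 1 gene cannot give a p below 0.333 in this design (two-sided). The fit was also tried on simulated reads in which genes changed by far more than any gene of the block did. That run does not cover differences as small as those described here. Chromosome and gene order came from GENCODE M21 (GRCm38), by identifier. That build differs from mm9, so apart from the windows of the RefSeq promoters no coordinates are given. The other genes named were, in each comparison list, among the 2 highest and 2 lowest in log2 fold change averaging 100 normalised reads or more, and the called genes between members. The Nckap1 entry of the chromosome 15 list lies on another chromosome and was left out. The genes of the block and the lists were chosen with earlier results of these data known.

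Alternatives were pseudocounts of 0.1 and 5, no filter and a minimum of 50, a common median, quantile normalization, limma without a trend, limma voom on the recovered reads, the replicate number as a block, and each library left out.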

Additional observations from a re-analysis of the deposited data

How the results depend on the processing

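The count of genes of the block above 0 was 41 with each of the other pseudocounts, filters, scalings and tests, and 37 to 43 with a library left out. The count with both overexpressing libraries above both wild type libraries was 30 under quantile normalization and 33 under the others, and 35 to 37 with a library left out, where fewer libraries have to part. The median log2 fold change of the block lay between 0.14 and 0.20 throughout. Of 45 genes, 9 changed sign in a fit without a library, and 0 under any other alternative. Beside those named above these were Hcfc2 (-0.04), Nr2c1 (-0.002) and Scyl2 (-0.10), all without wild type replicate 2. The genes called over all genes depended on the fit, and the cause was not tested. Higher calls, 16 with all libraries, were 10 with a pseudocount of 0.1, 7 without a filter, 8 under quantile normalization, 5 without a trend, 9 with voom, and 2 to 33 with a library left out. Lower calls, 14 with all libraries, were 9 without a filter, 4 without a trend, 36 with the replicate block, and 0 to 42 with a library left out. With the replicate block there were 24 higher calls and 0 calls among the 45 genes, but the labels give the libraries of the groups only a number in common, and their deviations correlated by 0.007. The median log2 fold change of all genes tested, 0.00536, was 0.0131 without a filter, 0.00937 with a common median, 0.00143 under quantile normalization and 0.00186 to 0.0131 with a library left out. Depth limits Igf1, Lum and Cpm.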
